A study of Mus musculus with 335 samples.

Results

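The 8 imprinted genes described here were followed across mouse mammary tumours, their metastases, cultured tumour lines and tumour-free organs: H19, Igf2, Plagl1, Peg3, Dlk1, Mest, Grb10 and Cdkn1c. They were chosen by symbol, not by their values, and make up 8 of the 20188 genes in the RNA-seq table. Each was read in all 335 libraries, which come from 281 animals or cultures in 61 groups of 1 tissue and model each. Values are RPKM, read counts divided by transcript length and library size, and libraries of the same tissue of 1 animal were averaged first. Differences are between means of log2(RPKM + 1), written as log2 differences, and a difference is called where its limma p-value, adjusted over all genes that passed an expression filter of 1 RPKM, is under 0.05. The log2(RPKM + 1) scale understates the change of genes near 0.

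Imprinted genes are read mainly from 1 parental copy, because the copies carry different marks, chiefly DNA methylation, laid down in the egg or the sperm. Many of them set growth before birth and are turned down in most tissues afterwards. Those read from the father's copy (Igf2, Peg3, Mest, Plagl1, Dlk1) include growth promoters, and those read from the mother's copy (H19, Cdkn1c and, outside the brain, Grb10) include restraints on growth. H19 and Igf2 are neighbours that share enhancers, and a methylated control region between them decides which is read from each parental chromosome.

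All mice and cultures are labelled untreated. The models are of 3 kinds. The first is orthotopic allografts, cultured lines placed in the mammary gland: 4T1, 4T07, 67NR, D2A1, EMT6, F311 and TSAE1 in BALB hosts, 6DT1 (driver cMyc), Mvt1 (cMYC/VEGF), Met1 (PyMT) and HRM1 (Pik3ca) in FVB hosts, M6 (SV40T) in hosts whose strain is entered as REAR, E0771 in BL6 and R3T in 129S1J. The second is the same lines given through the tail vein (4T1, Mvt1, 6DT1, Met1) or into the heart (M6 and Met1, hosts labelled FVB), which places tumour cells in the blood without a primary tumour. The third is transgenic mice: MMTV-PyMT in FVB, BL6, BL10, CAST and MOLF backgrounds, MMTV-Myc and MMTV-Neu in FVB, and C3Tag (SV40T). MMTV is a viral promoter active mainly in mammary epithelium. Lung and liver of FVB mice without tumours, and lung, liver and spleen labelled as adjacent to tumour, gave the background of each organ. The adjacent lung came from MMTV-PyMT FVB mice, and its labels do not say that metastases lay beside it. Cultures of 4T1, 4T07, 67NR, 6DT1, Mvt1, Met1 and M6 complete the set. A line is a single derived cell population, and the labels do not say that tumours of D2A1, E0771, EMT6, F311, HRM1, R3T and TSAE1 came from separate mice, so spread in those groups may be technical. In whole tissue, fewer cells of a type and less RNA per cell cannot be told apart.

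The stretch around a gene's start shows what kind of promoter is read. RefSeq (GRCm38.p6) starts were matched for 6 of the 8 genes, all but H19 and Cdkn1c, and each window runs from 250 bases before a start to 50 after it, 5′ to 3′ on the gene's own strand. Shown are 4 windows for Grb10 and Mest, the members called higher in tumours than in culture in the most lines. Also shown is 1 for Peg3, which among cultures reached 1 RPKM only in Mvt1. Capitals mark CpG, the dinucleotide that carries the methylation.

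Grb10, chr11:12037371-12037670, minus strand: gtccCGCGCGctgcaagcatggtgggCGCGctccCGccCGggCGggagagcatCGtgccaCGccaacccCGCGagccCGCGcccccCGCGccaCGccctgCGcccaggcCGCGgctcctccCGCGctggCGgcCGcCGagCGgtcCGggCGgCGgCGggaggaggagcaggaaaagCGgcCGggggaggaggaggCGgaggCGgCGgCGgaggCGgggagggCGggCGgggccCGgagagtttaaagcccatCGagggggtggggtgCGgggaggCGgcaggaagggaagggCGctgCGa
Grb10, chr11:12027922-12028221, minus strand: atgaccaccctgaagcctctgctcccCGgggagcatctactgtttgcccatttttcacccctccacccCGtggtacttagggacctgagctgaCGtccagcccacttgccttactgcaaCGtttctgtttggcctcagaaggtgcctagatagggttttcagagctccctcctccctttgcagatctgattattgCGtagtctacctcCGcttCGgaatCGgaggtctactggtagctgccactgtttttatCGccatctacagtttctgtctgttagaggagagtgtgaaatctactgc
Mest, chr6:30737800-30738099, plus strand: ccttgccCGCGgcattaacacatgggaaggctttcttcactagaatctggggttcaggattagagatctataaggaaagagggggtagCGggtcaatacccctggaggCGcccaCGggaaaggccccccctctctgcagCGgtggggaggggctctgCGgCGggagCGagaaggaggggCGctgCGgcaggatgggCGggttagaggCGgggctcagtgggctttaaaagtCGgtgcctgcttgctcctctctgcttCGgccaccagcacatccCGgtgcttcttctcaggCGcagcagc
Mest, chr6:30733256-30733555, plus strand: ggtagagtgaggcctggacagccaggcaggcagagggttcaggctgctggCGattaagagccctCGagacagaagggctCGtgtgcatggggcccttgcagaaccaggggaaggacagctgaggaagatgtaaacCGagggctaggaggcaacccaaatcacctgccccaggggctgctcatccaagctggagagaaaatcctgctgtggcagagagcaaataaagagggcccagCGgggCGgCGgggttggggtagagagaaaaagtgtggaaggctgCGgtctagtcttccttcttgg
Peg3, chr7:6730370-6730669, minus strand: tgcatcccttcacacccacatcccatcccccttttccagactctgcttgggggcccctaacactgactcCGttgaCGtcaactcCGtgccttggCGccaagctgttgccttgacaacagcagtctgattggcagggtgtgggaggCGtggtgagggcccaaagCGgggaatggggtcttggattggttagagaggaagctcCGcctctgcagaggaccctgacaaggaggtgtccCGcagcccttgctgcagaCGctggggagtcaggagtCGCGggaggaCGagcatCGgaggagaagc

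The Grb10 windows held 45 and 9 CpG and the Mest windows 17 and 8 (a further Mest start lies within the window that holds 17), so each gene has a start richer in CpG than another. The Peg3 window held 13. The median of the 32851 RefSeq windows was 7 CpG, and 26.5% held at least 20. Of the windows not printed, Plagl1 had 26 CpG, Dlk1 had 9, and the 4 Igf2 starts had 24, 14, 7 and 2. RPKM is summed over a gene, so these data do not say which start was read.

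Several libraries stood apart from their labels. Depth ran from 8106344 to 54906212 mapped reads (median 27175852). The lung metastasis of PyMT FVB animal mouse9716 had a summed level of 6 lung epithelial markers (surfactant genes, Ager, Scgb1a1) of 75157, within the range of healthy lung (52518 to 87992), where the other FVB metastases had 193 to 13620, and the Met1 tail vein metastasis had 88702. A BL6 library labelled as a primary tumour (animal PT_9873) had a lung marker sum of 683, where the other BL6 primaries had 1.99 to 35.3. The library labelled as the BL6 LM1_9783 lung metastasis had 1.21, where the others had 392 to 10824. Labels of 5 further profiles conflict within themselves (PyMT MOLF PT_9884 and PT_9944 and Met1 LW 1 primary tumours, both tissues of PyMT FVB mouse9742). Of 35 member calls that rest on the profiles with conflicting labels, 32 were made again without them and the other 3 are named beside their results. Without the 3 libraries whose lung markers go against their label, 17 of 17 such calls were made again. The 6 Mvt1 tail vein metastases carry titles that name Met1, while their line, driver and library names give Mvt1, which was followed. The liver metastases of a 6DT1 mouse are labelled as tail vein and the liver beside them as intracardiac, and they enter no test. Epithelial markers were nearly absent from 67NR (5-gene sum 0.0460 to 7.06 in cells and tumours, against 509 to 1140 in 4T1 tumours), and the brain metastases carried brain markers (Snap25 at 944 RPKM in M6 and 1816 in Met1) with epithelial sums of 5.20 and 23.2.

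The 8 genes covered very different ranges. Group means reached 1 RPKM in 58 of 61 groups for Mest, 49 for Grb10, 40 for H19, 31 for Cdkn1c, 28 for Peg3, 22 for Plagl1, 10 for Igf2 and 2 for Dlk1. Across 123 primary tumours H19 ran from 0.0749 to 392 RPKM (median 6.58), the widest span of the 8. Mest, by contrast, was at 1 RPKM or more in 123 of 123 primary tumours and 87 of 88 lung metastases. Over 24 cultures no H19 value reached 10 (highest 3.62), no Grb10 value exceeded 0.308 and no Cdkn1c value exceeded 0.917.

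**Figure D1:**
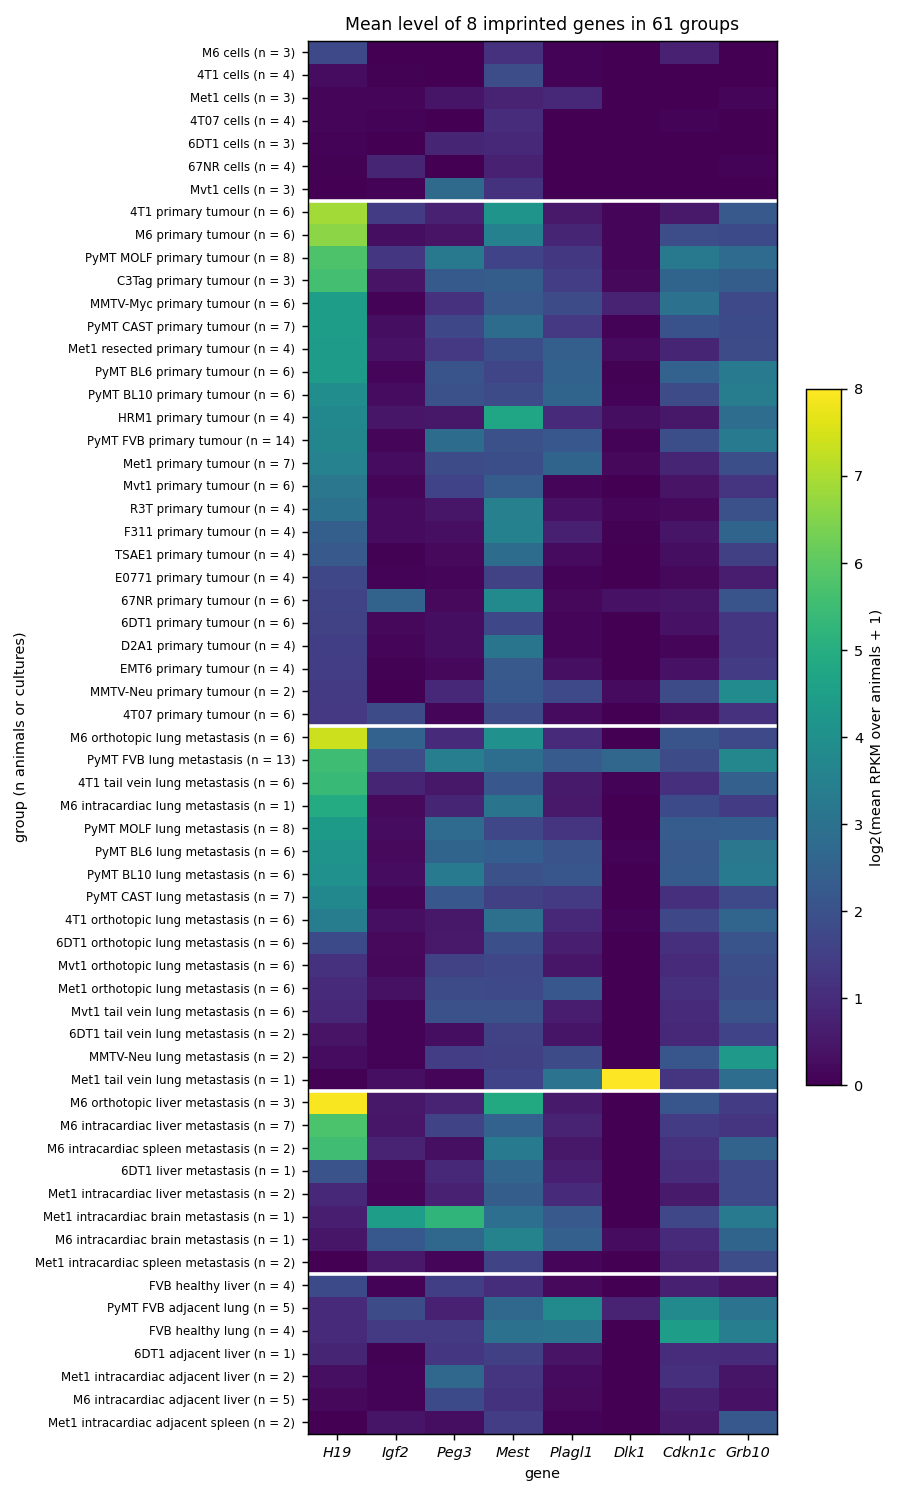
Heat map of the 8 genes (columns) in 61 groups (rows), as log2 of mean RPKM plus 1 on a colour scale from 0 to 8. Low values are dark and high values bright. Cultured lines are dark for Grb10, Cdkn1c and H19 apart from M6. The brightest cells are Dlk1 in the Met1 tail vein metastasis (259 RPKM) and H19 in M6 and 4T1 groups.

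H19, a long noncoding RNA abundant in fetal tissue, had its highest group means in M6 and 4T1. M6 orthotopic liver metastases averaged 242 RPKM (SD 407, n = 3), M6 orthotopic lung metastases 168 (SD 137, n = 6), 4T1 primary tumours 118 (SD 112, n = 6) and M6 primary tumours 95.8 (SD 149, n = 6). The next were PyMT MOLF primary tumours at 53.2 (SD 67.2, n = 8) and M6 intracardiac liver metastases at 52.5 (SD 89.6, n = 7). The SD exceeded the gap between neighbours in that order each time, so these neighbours do not differ beyond their spread. The lowest group means were those of the Met1 intracardiac spleen metastases (0.00634), the spleen beside them (0.0123) and Mvt1 cells (0.0167). MMTV-Neu primary tumours had 0.166 and 2.98, and healthy lung 0.357 to 1.52.

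H19 had the widest median spread between animals of 1 group among the 7 members other than Dlk1, whose spread rests on 1 group. The median range within a group was 3.33 on the log2 scale over 33 groups, against 1.19 for Mest, 1.20 for Plagl1, 1.25 for Grb10, 1.62 for Cdkn1c, 1.65 for Peg3 and 1.82 for Igf2 (8 groups). In M6 primary tumours the 6 animals ran from 3.19 through a median of 33.6 to 392 RPKM. In Mvt1, 1 of 6 primary tumours had 45.8 RPKM and the other five 0.200 to 0.698.

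Igf2, the growth factor encoded next to H19, was low nearly everywhere. It reached 1 RPKM in 18 of 123 primary tumours, 6 of 88 lung metastases and 2 of 24 cultures. The highest replicated group was 67NR primary tumours at 4.84 RPKM (SD 2.28, n = 6). H19 at 10 RPKM or more came without Igf2 at 1 or more in 47 of 53 primary tumours and 31 of 37 metastases, and the reverse held in 12 primary tumours and 0 metastases. Over the 61 group means the correlation of H19 with Igf2 was 0.11 (Pearson, log2 scale, a description over groups that share lines and depth). H19 followed Mest more closely (0.56).

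Plagl1, a zinc finger factor that restrains the cell cycle, was highest in adjacent lung (12.9 RPKM, SD 2.89, n = 5) and healthy lung (7.36, SD 0.87, n = 4), and among replicated tumour groups in PyMT primaries: BL10 4.94 (SD 1.04, n = 6) and Met1 4.92 (SD 1.76, n = 7). The single Met1 tail vein metastasis, with its healthy-lung marker levels, had 7.26. Peg3, a zinc finger protein linked to cell death and maternal behaviour, was highest among replicated groups in PyMT FVB metastases (9.67, SD 9.00, n = 13) and BL10 metastases (8.71, SD 5.42, n = 6), which differed by less than either SD. The Met1 intracardiac brain metastasis had 37.0 RPKM of Peg3 and 20.9 of Igf2 in a single library that carried brain markers, whose part in these values was not tested.

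Dlk1, a membrane ligand related to those of Notch that holds back fat cell formation, was nearly silent. Of 123 primary tumours 1 reached 1 RPKM (MMTV-Myc mouse12364, 3.55). Only 2 of 88 lung metastases did so, the Met1 tail vein metastasis at 259 and PyMT FVB mouse9716 at 68.2. These are the 2 metastasis libraries with healthy-lung levels of lung epithelial markers. Both also had the neighbouring noncoding RNAs Meg3 (198 and 194 RPKM) and Rian (265 and 333) at high levels, and H19 at 0.0430 and 0.107. Dlk1 in healthy lung was 0 to 0.00599.

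Mest, an enzyme of the alpha/beta hydrolase fold linked to fetal growth and fat cell size, was highest in M6 orthotopic liver metastases (27.9 RPKM, SD 29.2, n = 3) and HRM1 tumours, whose 4 values were 20.4, 21.3, 28.1 and 33.8. Grb10, an adaptor that binds the insulin and IGF1 receptors and dampens their signal, was highest in MMTV-Neu: 25.6 and 12.0 RPKM in metastases and 19.4 and 7.72 in primary tumours. Cdkn1c (p57), an inhibitor of cyclin-dependent kinases, had a higher mean in healthy lung (19.7, 21.0, 21.5 and 22.8 RPKM) than in any tumour group. Tumour-adjacent lung of PyMT FVB mice followed at 13.0 (SD 4.26, n = 5), and the highest tumour group was MOLF primary tumours at 8.39 (SD 3.84, n = 8). The highest single MMTV-Myc primary tumour had 32.1, above each healthy lung, in a group with a median of 1.53.

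Among 21 groups of primary tumours, 7 of 7 members that passed the expression filter (RPKM of at least 1 in enough profiles) differed (limma F test, adjusted p from 4.95e-27 for Plagl1 to 5.58e-12 for Grb10). That is close to the share of all genes, 98.7%. Among the 7 cultured lines only Peg3 and Mest passed. Peg3 was called (limma F test, adjusted p = 2.51e-14) and Mest did not pass the test (0.357), with 82.2% of all genes called. Only 3 of 24 cultures had Peg3 at 1 RPKM or more, all of them Mvt1. Peg3 therefore passed the filter through that line, and its difference is a description. Peg3 stood at 7.91, 4.56 and 5.08 RPKM in Mvt1 cells, 0.673 to 0.842 in 6DT1, 0.344 to 0.405 in Met1 and at most 0.0234 in 67NR.

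Tumours grown in mice were compared with the same lines in culture. Over the 7 lines Grb10, Mest and H19 passed the filter, and the other five members did not. Culture means reached 1 RPKM in 0 of 7 lines for Grb10, 1 for H19 and 4 for Mest, so Grb10 and H19 passed through the tumours and their direction is a description. Line means of Grb10 averaged 2.32 RPKM in tumours against 0.0315 in culture (log2 difference 1.53, SE 0.17, 95% interval 1.15 to 1.91, limma adjusted p = 0.00026, higher in 7 of 7 lines), and the lowest tumour mean lay above the highest culture mean. Mest averaged 7.37 against 1.21 (1.62, SE 0.30, adjusted p = 0.0057, 7 of 7). H19 averaged 34.0 against 0.410 (2.49, SE 0.57, adjusted p = 0.0151, 7 of 7), and its adjusted p was 0.0619 when the line was not kept as a block. Of all genes, 21.9% were called, 12.4% higher in tumours, and 4.08% did not overlap between the groups.

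**Figure D2:**
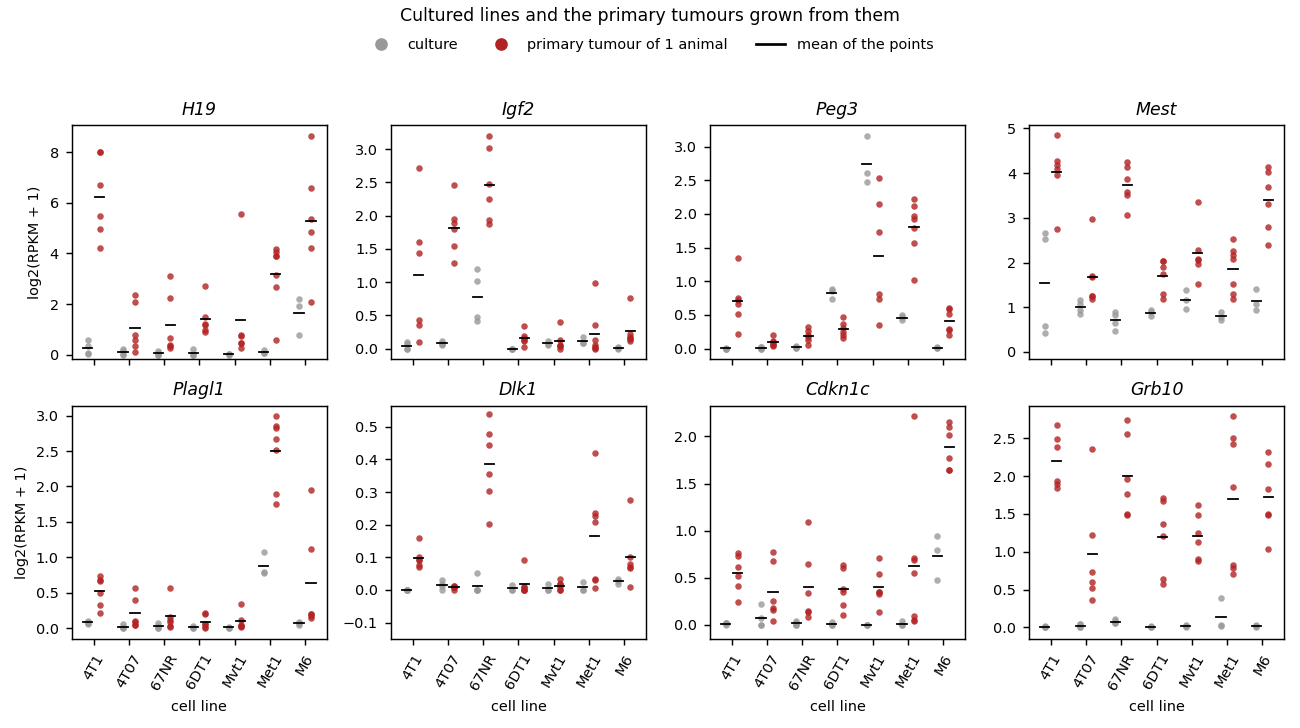
Level of each gene, as log2 of RPKM plus 1, in cultures (grey) and primary tumours (red) of 7 lines, 1 point a culture or animal and a bar at the mean. Grb10 in cultures lies at or below 0.308 RPKM, under every tumour of the same line, while Peg3 in Mvt1 lies higher in culture.

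Within single lines 23 member tests passed the filter. In 15 of them no culture reached 1 RPKM, so these passed through the tumours alone, and their direction was largely fixed by the filter and is a description. Of the other 8, 6 were called higher in tumours (Mest in 4T1, Mvt1 and M6, Igf2 in 67NR, Plagl1 in Met1 and H19 in M6) and 2 were not called (Mest in 4T07 and Peg3 in Mvt1). The share of genes called higher was 28.3% in 4T1, 18.7% in 4T07, 26.7% in 67NR, 27.2% in 6DT1, 18.5% in Mvt1, 14.2% in Met1 and 13.6% in M6. The share of genes whose cultures and tumours did not overlap was 38.0%, 29.3%, 36.7%, 53.2%, 37.1%, 34.7% and 32.0% in the same order. In 4T1, H19 was 0.0113, 0.0459, 0.291 and 0.503 RPKM in the 4 cultures and 17.5 to 259 (median 73.6) in 6 tumours. The groups did not overlap (log2 difference 5.97, SE 0.71, limma adjusted p = 5.84e-05).

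Grb10 in 4T1 was 0 in 3 cultures and 0.0141 in the other, against 2.58 to 5.40 (median 3.53) in tumours (2.20, SE 0.18, adjusted p = 4.8e-06, limma). Mest in 4T1 cultures fell into pairs, 5.36 and 4.77 in those labelled AS and 0.335 and 0.499 in those labelled as isolations, all below the tumours (5.72 to 27.7, median 16.6). The difference was 2.46 (SE 0.52, limma adjusted p = 0.00244).

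67NR showed Mest at 0.385 to 0.871 in culture and 7.34 to 18.0 in tumours (3.02, SE 0.22, limma adjusted p = 1.73e-06). Its Grb10 was 0.0385 to 0.0819 in culture and 1.79 to 5.66 in tumours (1.92, SE 0.25, adjusted p = 0.000134). Igf2 rose in 2 lines. In 67NR it was 0.330, 0.391, 1.02 and 1.30 in culture and 2.68 to 8.17 (median 4.15) in tumours (1.68, SE 0.29, adjusted p = 0.000922). In 4T07 it was 0.0389 to 0.0809 against 1.43 to 4.52 (1.74, SE 0.19, adjusted p = 5.42e-05). Neither overlapped.

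Met1 had the most members that passed the filter, 5, and all were called. Only Plagl1 had a culture at 1 RPKM or more, so the direction of the others is a description. H19 was 0.0503, 0.0562 and 0.138 in culture and 0.481 to 16.8 (median 13.9) in 7 tumours (3.09, SE 0.67, limma adjusted p = 0.00628). Plagl1 was 0.714, 0.732 and 1.10 against 2.38 to 6.95 (1.62, SE 0.28, adjusted p = 0.00189), and Peg3 0.344, 0.378 and 0.405 against 1.03 to 3.64 (1.34, SE 0.25, adjusted p = 0.00266). Mest differed by 1.06 (adjusted p = 0.0205) and Grb10 by 1.55 (0.0334), and Grb10 was no longer called without the tumour LW 1 (0.0515). The other four were called again without it (0.00318 for Plagl1 to 0.0258 for Mest).

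In M6, Cdkn1c was 0.385, 0.738 and 0.917 in culture and 2.11 to 3.46 in tumours (1.15, SE 0.19, limma adjusted p = 0.0017), the only line in which it passed the filter. H19 in M6 cells, 0.698, 2.82 and 3.62, was the highest of any culture and overlapped the tumours (3.64, SE 1.15, adjusted p = 0.0387). The M6 H19, Met1 Grb10, and Mvt1 and Met1 Mest calls were lost whichever single culture was left out. Calls were also made for Grb10, H19 and Mest in 6DT1, Grb10 and Mest in Mvt1, and Grb10 and Mest in M6. Peg3 in Mvt1 lay the other way, at 4.56 to 7.91 in culture and 0.272 to 4.76 in tumours (-1.36, SE 0.47, adjusted p = 0.05), and did not pass the test.

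The other imprinted genes did not move as a group. Of the 63 in the table, 29 were tested over the 7 lines, 4 were higher in tumours (13.8%, against 12.4% of all genes), 0 lower, and their median difference was -0.05, against -0.04 for all genes. Dcn (54.3 against 0.740 RPKM), a matrix proteoglycan also counted among the fibroblast markers, Rian (3.49 against 0.0197) and Gatm (32.5 against 11.0) were among them. Of 10 genes of the Igf2 pathway and its RNA regulators, 6 were tested and 2 were called, both lower: Igf2bp2, which binds the Igf2 mRNA, averaged 19.8 against 28.3 (-0.63, limma adjusted p = 0.0163), and Dicer1 4.36 against 6.42 (-0.43, 0.0363). In single lines the counts of other imprinted genes called higher in tumours, and their share of those tested, were 13 of 31 in 4T1 (41.9%), 6 of 26 in 4T07 (23.1%), 10 of 28 in 67NR (35.7%), 5 of 30 in 6DT1 (16.7%), 4 of 29 in Mvt1 (13.8%), 7 of 35 in Met1 (20.0%) and 7 of 29 in M6 (24.1%). Set beside the shares of all genes given above, these lie higher in 5 lines and lower in 6DT1 and Mvt1. Between 1 of 29 (M6, with 16.1% of all genes) and 9 of 30 (6DT1, with 28.4%) were lower. Gatm, an enzyme of creatine synthesis, was among the leading calls in 4T1, 67NR, Met1 and M6. Copg2, which overlaps Mest, was lower in 6DT1 tumours (11.6 against 19.2 RPKM, -0.68), where Mest was higher, and whether the counting used strand is not given in the sources used here. Igf2r, the receptor that clears Igf2 and is itself imprinted, was lower in tumours of 6DT1 (23.3 against 70.2, -1.55) and Mvt1 (27.4 against 68.5, -1.29) and higher in 67NR (10.9 against 7.42, 0.50).

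Cell type markers moved with the members. Over the 7 lines 7 of 8 fibroblast, 4 of 4 tested endothelial and both macrophage markers of the table were higher in tumours. Summed endothelial markers were 0.0433 to 1.37 in cultures and 5.27 to 99.3 in tumours of the 7 lines. Fibroblast marker sums were 0.887 to 154 in cultures and 21.0 to 1074 in tumours, and they overlapped in Met1 alone (35.1 to 154 and 21.0 to 1074). Their part in these results was not tested.

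Lung metastases were then compared with the primary tumour of the same animal in 10 models, the study's main contrast. No member moved one way in all of them. Of 80 member and model pairs 48 passed the filter, and 7 were called: H19 was lower in 4T1 and Met1, Mest lower in 4T1, Cdkn1c lower in CAST, Grb10 higher in 6DT1 and Mvt1, and Peg3 higher in BL10. Igf2 and Dlk1 passed in none. The share of all genes called ran from 0.317% in Met1 to 34.4% in 6DT1. Only the 6DT1 Grb10 call was kept in every refit without 1 animal. Over all models 6 of 6 lung epithelial markers were higher in metastases, with sums of 193 to 13620 (FVB mouse9716 and BL6 LM1_9783 apart), and 6 of 8 fibroblast markers were lower.

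H19 in 4T1 was 17.5 to 259 RPKM (median 73.6) in 6 primary tumours and 0.665 to 23.6 (median 7.87) in their lung metastases. Every metastasis lay below its own primary tumour, though the ranges overlapped. The difference was -3.28 on the log2 scale (SE 0.64, 95% interval -4.73 to -1.82, limma adjusted p = 0.0192, lower in 6 of 6), and the adjusted p was 0.0513 without animal 9. Mest in 4T1 was 5.72 to 27.7 (median 16.6) in primary tumours and 4.59 to 9.94 (median 6.31) in metastases. It was lower in 5 of 6 animals (-1.11, adjusted p = 0.0209), and without animal 1, 2 or 9 the adjusted p was 0.0629 to 0.0644. In this model 12.1% of genes were called, 4.75% lower. Fibroblast marker sums were 240 to 925 in primary tumours and 119 to 424 in metastases, with 2 of 8 markers lower. Their part was not tested.

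H19 in Met1 showed the clearest gap. Primary tumours of the 6 paired animals had 5.33, 7.87, 13.9, 14.1, 15.6 and 16.8 RPKM, and the metastases 0.260 to 2.27 (median 0.684). The groups did not overlap (-2.77, SE 0.36, limma adjusted p = 0.0338, lower in 6 of 6). Here 0.317% of genes were called, 0.0544% lower, and 0.725% did not overlap. The call was lost in 5 of 6 refits that left out 1 animal (adjusted p up to 0.203) and without the expression filter (0.122), with differences from -3.04 to -2.61. The refit that kept it left out LW 1, the pair whose primary tumour has conflicting labels (-3.04, 0.0289). Fibroblast marker sums were 21.0 to 1074 in primary tumours and 28.3 to 87.7 in metastases, with 0 of 8 markers called. The unpaired Met1 primary tumour set1 11 had H19 at 0.481, within the range of the metastases.

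**Figure D3:**
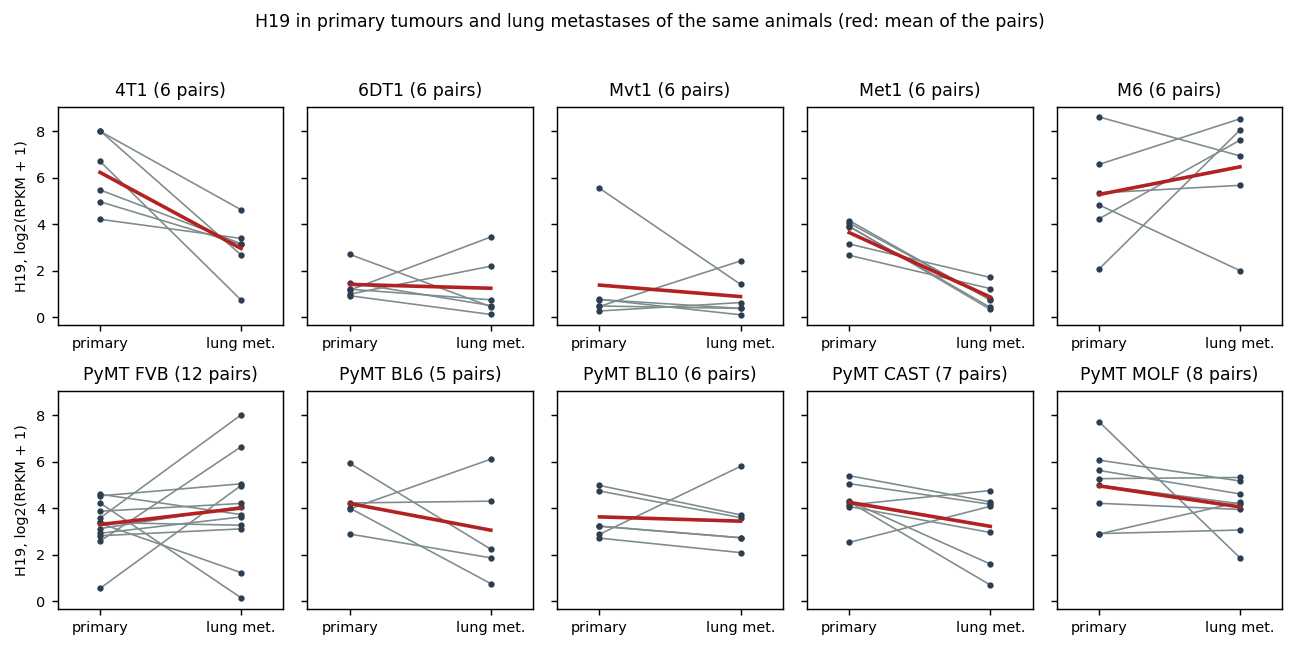
H19 in the primary tumour and lung metastasis of each animal in 10 models, log2 of RPKM plus 1, 1 grey line an animal and the mean of pairs in red. Each line falls in 4T1 and Met1, while lines rise and fall in M6 and the PyMT strains.

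Grb10 rose in the metastases of 2 lines. In 6DT1 it was 0.491 to 2.28 RPKM (median 1.45) in primary tumours and 1.37 to 5.77 (median 2.88) in metastases, higher in 6 of 6 animals (0.77, SE 0.12, limma adjusted p = 0.00255) with overlapping ranges. The share of genes called higher was 19.4% (34.4% in either direction). In Mvt1 it was 0.839 to 2.07 (median 1.28) and 2.06 to 3.03 (median 2.92), higher in 5 of 6 (0.70, adjusted p = 0.0154), in a model with 11.2% of genes called higher and 29.0% in all. The Mvt1 adjusted p was 0.0583 without animal 4 and 0.0524 without animal 6. Healthy lung, with 8.48 to 12.0 RPKM of Grb10, lay above both tissues. The 6 of 6 lung epithelial markers were higher in the metastases of both models, and their part was not tested.

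Peg3 in BL10 was 1.28 to 7.90 RPKM (median 1.93) in primary tumours and 3.26 to 15.3 (median 7.23) in metastases. It was higher in 6 of 6 animals, with overlapping ranges (1.30, SE 0.26, limma adjusted p = 0.0441), where 0.973% of genes were called higher and 2.56% in all. The call was lost in 4 of 6 refits without 1 animal (adjusted p up to 0.120), without the filter (0.0901) and without the animal block (0.0750). Those refits left out animal mouse9788, PT_9891, PT_9895 or PT_9896. Healthy lung, which came from FVB and not BL10 mice, had 1.26 to 2.07 RPKM of Peg3, under the metastases. Fibroblast marker sums were 56.7 to 333 in primary tumours and 13.6 to 62.4 in metastases, and their part was not tested.

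Cdkn1c in CAST was 2.02 to 4.29 RPKM (median 2.60) in primary tumours and 0.533 to 2.14 (median 0.880) in metastases, lower in 7 of 7 animals (-0.95, SE 0.18, limma adjusted p = 0.0212) where 3.20% of genes were called lower and 4.51% in all. The call was lost without animal CAST_10075, CAST_10131 or PT_9802 (adjusted p up to 0.0875). The metastases lay well under healthy lung (19.7 to 22.8), which came from FVB and not CAST mice. MOLF showed 3.45 to 15.7 and 0.936 to 6.69, lower in 7 of 8 (-0.90, SE 0.22), which did not pass (adjusted p = 0.0893), and without the profiles with conflicting labels it was -1.03 (0.207). Fibroblast marker sums in CAST were 52.4 to 288 in primary tumours and 9.26 to 29.4 in metastases, with 6 of 8 markers lower, and their part was not tested.

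Other pairs moved without a call. H19 in M6 was 3.19 to 392 in primary tumours and 3.01 to 371 in metastases (1.19, SE 1.06, limma adjusted p = 0.557, higher in 4 of 6). In PyMT FVB it was 0.463 to 26.7 and 0.107 to 259 (0.71, SE 0.67, adjusted p = 0.615, higher in 8 of 12), and without animal mouse9716 the difference was 1.15 (0.386). Plagl1 was lower in all 6 animals of Met1 (-0.32, adjusted p = 0.394) and in all 6 of BL10 (-0.45, 0.116). M6, FVB, BL6 and MOLF had no member called. At an unadjusted p under 0.05 the count there was 0, 0, 1 and 1, and the share of all genes called was 4.71%, 1.27%, 0.651% and 1.10%.

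In the fit shared over the 10 models, 0 of 6 members tested were called by limma (1 at an unadjusted p under 0.05), while 31.2% of genes were. Mean H19 was 28.9 RPKM in metastases and 35.9 in primary tumours (-0.81, SE 0.38, adjusted p = 0.122, lower in 8 of 10 models), and without M6 it was -1.03 (0.0490). Peg3 averaged 3.99 and 2.94 (0.31, SE 0.12, adjusted p = 0.0640, higher in 7 of 10), and without 4T1 0.36 (0.0418). Grb10 differed by 0.22 (0.12), Mest by -0.13 (0.574), Cdkn1c by 0.09 (0.715) and Plagl1 by 0.01 (0.947).

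The size of the difference varied between models for 5 of 7 members tested (limma F test over 68 pairs): Cdkn1c (adjusted p = 0.0045), Mest (0.0227), Plagl1 (0.0262), Igf2 (0.0351) and H19 (0.0381). Of all genes 18.6% did so. Igf2 passed the filter in no model fitted alone. It entered this fit because only 5 profiles of all models had to reach 1 RPKM, the number of BL6 pairs. Its call thus leans on the animals where it was high and is a description. Without the 5 profiles with conflicting labels H19 (0.0517) and Igf2 (0.0516) were no longer called. Grb10 (0.233) and Peg3 (0.426) did not pass.

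**Figure D4:**
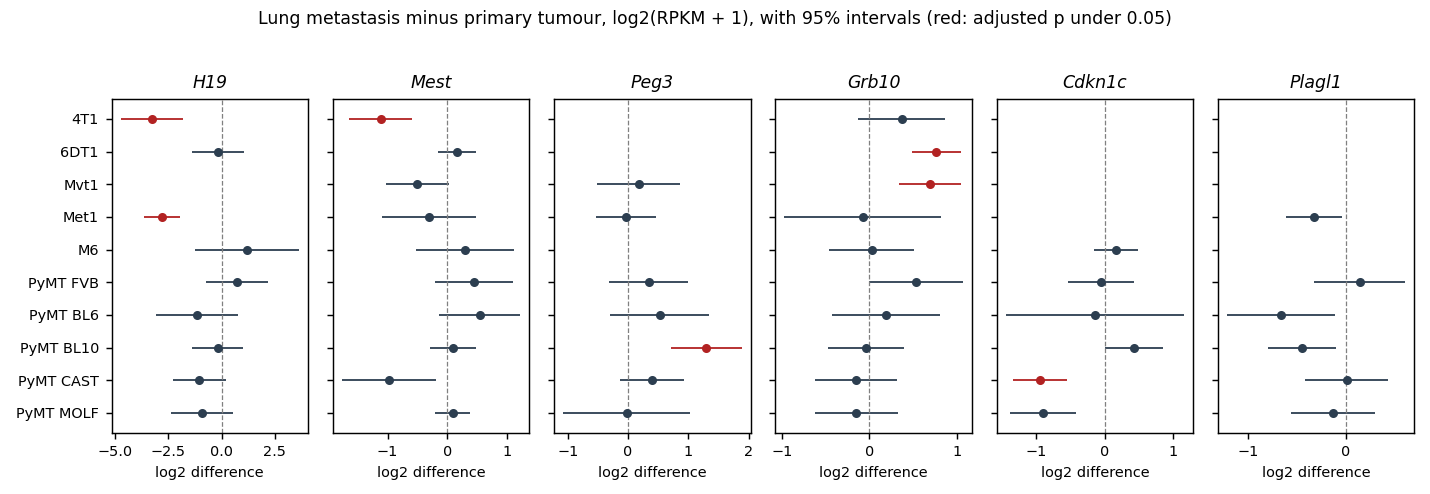
Lung metastasis minus primary tumour on the log2 scale for 6 genes in 10 models, with 95% intervals; red marks an adjusted p under 0.05. H19 spans from -3.28 in 4T1 to 1.19 in M6, with wide intervals, and red points are 4 below zero and 3 above.

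Other imprinted genes gave calls in the shared fit. Of 36 tested, 5 were higher in metastases and 4 lower, with a median of -0.01 against -0.04 for all genes. That is 25.0% called, under the 31.2% of all genes. Sgce, next to Peg10 in an imprinted cluster, averaged 3.47 and 1.62 RPKM (0.74, limma adjusted p = 4.99e-05, higher in 10 of 10 models). Rian, a noncoding RNA near Dlk1, was lower in 10 of 10 on the log2 scale (-0.90, 0.000448), although its plain mean was 3.71 against 2.81 RPKM with FVB mouse9716 (333) included. Gnas, a G protein subunit, averaged 77.0 and 96.0 (-0.34, 0.00167). Within models the counts called ranged from 0 in Met1 and FVB of 31 and 35 tested to 9 higher and 5 lower of 31 in 6DT1 (45.2%, with 34.4% of all genes called). In 4T1 the neighbours Snurf (-0.71) and Snrpn (-0.57) and the ubiquitin ligase Ube3a (-0.65) were lower. Of 5 Igf2 pathway genes tested the insulin receptor Insr was lower (-0.21, 0.0143). In 4T1, Igf2bp2 (-1.05), Igf1r (-0.81) and Insr (-0.50) were lower among 6 tested.

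Primary tumours of related models were compared next. 4T1, 4T07 and 67NR are lines in BALB hosts. H19 separated 4T1 from both others: 17.5 to 259 RPKM against 0.0790 to 4.16 in 4T07 (log2 difference 5.18, SE 0.67, limma adjusted p = 5.79e-05) and 0.197 to 7.73 in 67NR (5.06, SE 0.72, 5.19e-05), without overlap. Igf2 ran the other way, 0.0728 to 5.59 in 4T1 and 2.68 to 8.17 in 67NR (-1.35, adjusted p = 0.0125). In these 3 pairs 43.5% (4T1 and 4T07), 59.4% (4T1 and 67NR) and 64.8% (4T07 and 67NR) of all genes were called, and 21.9%, 35.9% and 40.9% did not overlap.

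Mest, Grb10 and Igf2 were lower in 4T07 than in 67NR. Mest in 4T07 was 1.29 to 6.79 against 7.34 to 18.0 in 67NR, without overlap (-2.06, SE 0.30, limma adjusted p = 4.93e-05), and 4T1 had 2.34 more Mest than 4T07 (0.000178). Grb10 in 4T07 differed from 67NR by -1.03 (0.0169), and 4T1 exceeded 4T07 by 1.24 (0.00529). Igf2 in 4T07 differed from 67NR by -0.64 (0.0395). Other imprinted genes also separated these lines, with 17 of 30 tested (56.7%) called between 4T1 and 4T07, 21 of 33 (63.6%) between 4T1 and 67NR and 24 of 28 (85.7%) between 4T07 and 67NR. Of all genes 43.5%, 59.4% and 64.8% were called in these pairs, so the count between 4T1 and 67NR is near that of any gene. Phlda2, a growth restraint of the Cdkn1c cluster, was 8.35 RPKM in 4T1, 0.483 in 4T07 and 0.0295 in 67NR.

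Lines were also set beside transgenic tumours with the same driver, which differ from them in culture history too. Met1 had less Cdkn1c than PyMT FVB tumours (0.783 against 2.79 RPKM, -1.17, SE 0.30, limma adjusted p = 0.00499) and less Grb10 (2.82 against 8.73, -1.35, 0.0128), with overlap, among 30.8% of genes called. Without the profiles with conflicting labels both were called again (0.00636 and 0.0155). Slc22a18, of the same cluster as Cdkn1c, was 0.304 in Met1 and 3.01 in PyMT FVB. 6DT1 had less H19 than MMTV-Myc, 0.891 to 5.50 against 5.34 to 58.4 (-2.72, SE 0.45, 0.000172, 62.5% of genes called). Rescaling the libraries moved the median of all genes there from 0.16 to -0.04, and Mest (-0.61, 0.0413) and Grb10 (-0.65, 0.0477) were then called lower too. M6 had less Peg3 than C3Tag, 0.148 to 0.516 against 1.10, 5.16 and 5.22, without overlap (-1.70, SE 0.32, 0.00651). As M6 tumours all lay under 1 RPKM, Peg3 passed the filter through C3Tag alone, and its direction is a description. There 14.8% of genes were called and 20.1% did not overlap. H19 in these SV40T models was high and scattered in both (3.19 to 392, and 10.0, 41.6 and 90.6), and did not pass (0.15, SE 1.24, 0.953).

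Between transgenes in FVB mice, MMTV-Myc tumours had less Grb10 (2.43 against 8.73 RPKM, -1.34, limma adjusted p = 0.00382) and less Peg3 (1.20 against 6.08, -1.57, 0.00208) than PyMT tumours, among 61.9% of genes called. Both were called again without PyMT FVB mouse9742 (0.00538 and 0.00268). The median gene was -0.21 in that comparison, -0.16 in M6 against C3Tag and 0.18 in C3Tag against PyMT FVB, and within 0.03 of 0 once rescaled. C3Tag tumours had more H19 (47.4 against 11.6, 1.81, 0.0382, 49.1% called). That call was lost without C3Tag animal C3TAg_17337 or 2 (adjusted p up to 0.277), with a smaller pseudocount (0.0609), without the filter (0.0513) and after rescaling (0.0568), and it was made again without PyMT FVB mouse9742 (0.0462).

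Host background went with 4 member calls among PyMT primary tumours set against FVB. MOLF tumours had more Cdkn1c (3.45 to 15.7, median 7.99, against 0.662 to 6.87, median 2.45; 1.33, SE 0.26, limma adjusted p = 0.000587), more H19 (6.41 to 211, median 34.3, against 0.463 to 26.7, median 9.34; 1.64, SE 0.54, 0.0218) and less Plagl1 (1.47 against 3.53, -0.83, 0.026). All 3 overlapped, and 36.2% of genes were called. The same calls were made without the MOLF and FVB profiles that have conflicting labels, with H19 at 1.96 (0.0147), Cdkn1c at 1.26 (0.0027) and Plagl1 at -0.97 (0.0101). Slc22a18 was higher in MOLF as well (10.7 against 3.01 RPKM, 1.58, 2.45e-06). CAST tumours had less Grb10 (1.61 to 4.02 against 1.40 to 18.3, -1.28, SE 0.34, 0.0159), among 13.1% of genes called, and 0.0184 without PyMT FVB mouse9742. BL6 and BL10 had 0 members called by limma, 0 at an unadjusted p under 0.05, with 6.59% and 9.37% of genes called.

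Route of injection went with 1 member call. Mest was 2.54 to 4.84 RPKM (median 3.23) in 4T1 lung metastases after tail vein injection and 4.59 to 9.94 (median 6.31) after orthotopic growth, overlapping (-0.75, SE 0.17, limma adjusted p = 0.0291, 5.75% of genes called). H19 was 11.8 to 93.1 (median 29.5) against 0.665 to 23.6 (median 7.87) and did not pass (2.10, SE 0.61, 0.0607). Mvt1, whose tail vein titles conflict with the other labels as given above, and 6DT1 had 0 members called (2 and 0 at an unadjusted p under 0.05), with 4.25% and 10.2% of genes called.

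In M6, metastases in other organs could be set beside the primary tumours. Peg3 was 0.646 to 4.55 RPKM (median 1.75) in liver metastases after intracardiac injection and 0.148 to 0.516 in orthotopic primary tumours, without overlap (1.12, SE 0.22, limma adjusted p = 0.000808; 41.7% of genes called, 19.7% without overlap). Since every primary tumour lay under 1 RPKM, Peg3 passed the filter through the metastases alone, and its direction is a description. Adjacent liver had 0.973 to 3.61 RPKM of Peg3. Hepatocyte markers (4 of 4 higher) summed to 6296 to 33092 in the metastases and 0.144 to 0.441 in the primaries. Their part was not tested, and route and host strain (FVB and REAR) cannot be told apart from organ. Mest (4.70 against 10.5, -0.96, 0.0188) and Cdkn1c (1.66 against 2.74, -0.54, 0.0381) were lower. Both were lost after rescaling, which moved the median of all genes from -0.34 to -0.01.

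H19 was higher in the liver metastases than in the liver beside them. In 5 animals it was 2.75, 8.93, 13.1, 82.0 and 245 RPKM in metastases and 0.0337 to 0.212 in adjacent liver, without overlap (4.51, SE 1.03, limma adjusted p = 0.0116, higher in 5 of 5; 93.2% of genes called, 84.9% without overlap). Adjacent liver never reached 1 RPKM of H19, so H19 passed the filter through the metastases alone. Its direction and lack of overlap are therefore a description. As deposited the median gene was 1.35 higher in metastases. Relative to rescaled libraries, where it was -0.13, H19 remained called (4.18, 0.00607) and Peg3 was lower (-0.37 as deposited, adjusted p = 0.0359, and -1.87 rescaled, 4.60e-06). Without animal IC_1278 the H19 call was lost (0.0506), and the deposited Peg3 call was lost without animal IC_1266 or IC_1297 (up to 0.171), without the animal block (0.194) and without the filter (0.115). Mest (1.59 and 0.27) and Grb10 (0.95 and 0.23) lost the call on rescaling, and Cdkn1c (0.83 and -0.21) changed sign.

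Liver and lung metastases of the same 3 M6 animals showed how far H19 can part within a mouse: 13.4 and 264 RPKM in animal M6_870, 713 and 3.01 in M6_874, and 0.537 and 50.1 in M6_878. No member was called (0 at an unadjusted p under 0.05), with 8.38% of genes called. With all 3 animals H19 differed by -0.60 in liver (limma adjusted p = 0.954). Animal M6_874 alone ran the other way, and without it the difference was -4.63. That refit rests on M6_870 and M6_878 alone, which ran the same way, so it is a description. Met1 tumours labelled as resected and the other primary tumours of the same 4 animals gave 0 member calls (0 at an unadjusted p under 0.05, 0.00% of genes called). Resected H19 was 3.23, 3.04, 2.13 and 73.6, against 13.9, 16.8, 7.87 and 14.1 in the other tumours.

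Organs without tumour put the members' background in place. Healthy lung had more Cdkn1c than healthy liver (21.3 against 0.628 RPKM, log2 difference 3.77, limma adjusted p = 1.97e-23), and more Grb10 (9.74 against 0.353), Plagl1 (7.36 against 0.159), Mest (7.09 against 1.07) and Igf2 (1.58 against 0.0645), without overlap. Healthy liver had 0 of 4 animals at 1 RPKM for Cdkn1c, Grb10, Plagl1 and Igf2, against 2 of 4 for Mest. Those 4 members passed the filter through lung alone, so their direction and lack of overlap are a description. Of all genes 92.1% were called, 89.2% did not overlap and the median gene was 1.35 higher in lung. After rescaling the 5 calls held, at 0.84 (Mest) to 2.81 (Cdkn1c), and Peg3 was lower in lung (-1.43). H19 in healthy liver was 0.0364, 0.0548, 0.780 and 8.94. Adjacent and healthy liver had 0 of 2 tested members called (0 at an unadjusted p under 0.05), with 1.14% of genes called.

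Lung of PyMT FVB mice labelled as tumour adjacent differed from healthy lung in 3 members, with 13.6% of genes called. Peg3 was 0.392 to 1.09 against 1.26 to 2.07 (-0.66, limma adjusted p = 0.0215) and Cdkn1c 8.48 to 18.6 against 19.7 to 22.8 (-0.72, 0.0433), both without overlap, as were 16.5% of genes. Plagl1 was higher, 8.42 to 16.4 against 6.36 to 8.47 (0.71, 0.0206). Igf2 did not overlap either, 2.03 to 3.77 against 1.13 to 1.91, but did not pass (0.48, 0.0664). Without the adjacent lung of animal mouse9462f Grb10 (-0.42, 0.0361) and Mest (-0.38, 0.0387) were called lower as well. The Cdkn1c call was lost in 7 of 9 refits without 1 animal (all but adjacent mouse9462f and BL5Rf, adjusted p up to 0.102), the Plagl1 call without healthy PF1 or PF2 or adjacent mouse9469f (up to 0.0636) and the Peg3 call without healthy mouse9591 (0.0559).

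PyMT FVB metastases set against adjacent lung had more H19 (0.107 to 259 against 0.572, 0.734, 0.781, 1.13 and 1.46; 3.27, SE 0.90, limma adjusted p = 0.00431), Peg3 (0.430 to 37.2 against 0.392 to 1.09; 2.33, 0.000442) and Grb10 (6.70 to 17.7 against 6.33 to 8.74; 0.60, 0.00796). They had less Cdkn1c (0.774 to 7.41 against 8.48 to 18.6; -2.11, 3.56e-05) and Plagl1 (0.255 to 8.12 against 8.42 to 16.4; -1.67, 0.000766), both without overlap, in a comparison with 61.8% of genes called and 24.8% without overlap. Peg3 overlapped through animal mouse9716, whose metastasis carried healthy-lung marker levels, and H19 through it and mouse9336 (1.35). Without mouse9716 H19 was 3.61 (0.000494) and Peg3 2.54. Lung epithelial (6 of 6), endothelial (5 of 5) and fibroblast markers (6 of 8) were lower in the metastases, with endothelial sums of 15.6 to 114 against 269 to 416, and their part was not tested.

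Separate nodules from the lungs of 1 mouse showed how much of the spread lies within an animal. In 37 animals with 79 nodules the median H19 range was 0.81 on the log2 scale, and 15 animals had a range of 1 or more. Mest never reached 1 (largest 0.79). The widest pair was PyMT FVB mouse9674, with H19 at 0.732 RPKM in 1 nodule and 516 in the other. The nodule with more H19 also had more Igf2 (61.9 against 0.0618) and less Grb10 (3.01 against 29.9) and Plagl1 (1.05 against 6.14). The nodules' epithelial sums were 1162 and 1204 and their lung marker sums 555 and 432.

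**Figure D5:**
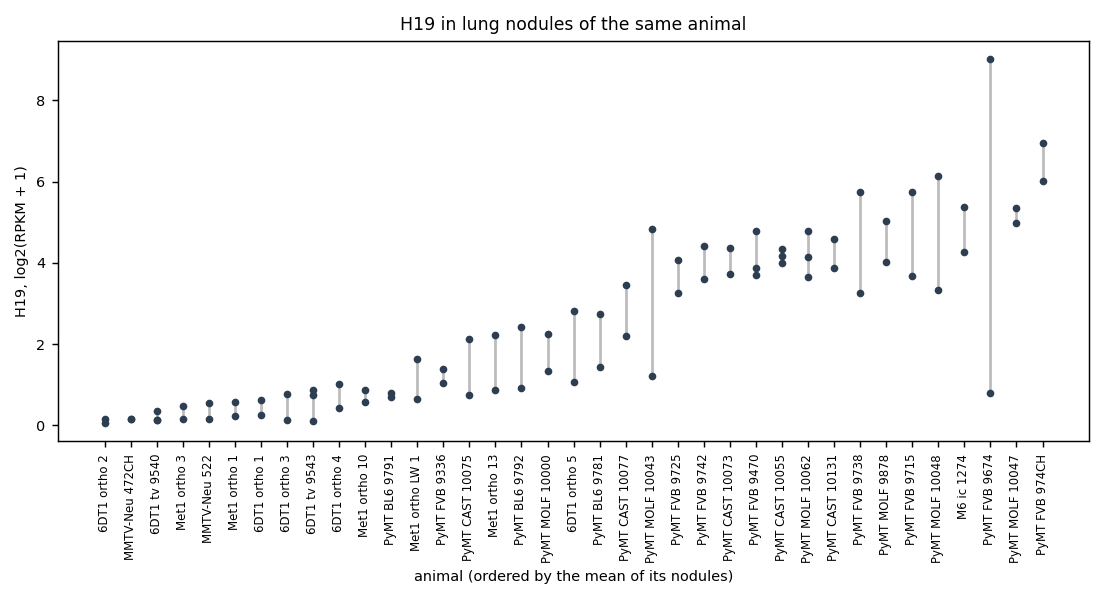
H19 in each lung nodule of 37 animals, log2 of RPKM plus 1, with nodules of 1 animal joined. Nodules of most animals lie close together (median range 0.81), and those of PyMT FVB mouse9674 lie 8.22 apart.

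Peg3 and Cdkn1c also parted between nodules in single animals. BL6 mouse9781 had Peg3 at 0.120 and 14.0 RPKM. MOLF_10043 had H19 at 1.31 and 27.6 and Cdkn1c at 2.99 and 10.4. 6DT1 animal 1 had Cdkn1c at 0.349 and 3.78, a range of 1.82, the widest for that gene. All 3 nodules of PyMT FVB mouse9470 had high Mest (33.9, 40.0 and 44.9).

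Levels followed chromosomal neighbours for some members only. Over the 61 group means Plagl1 followed Phactr2 (Pearson r 0.80), Peg3 followed Usp29 (0.58) and Zim3 (0.51), and Dlk1 followed Meg3 (0.59) and Mirg (0.59), while Mest with Copg2 (0.18) and H19 with Igf2 did so little. Usp29 and Zim3 reached a group mean of 1 RPKM in 2 of 61 groups and Mirg in 3. Without the 4 groups that hold the brain metastases of Met1 and M6, the Met1 tail vein metastasis and FVB mouse9716, the coefficients were 0.77 for Phactr2, 0.72 for Usp29, 0.59 for Zim3, 0.43 for Meg3 and 0.33 for Mirg. That refit was chosen after seeing the data. Among all genes with a group mean of at least 5 RPKM, those nearest H19 were Krt17 (0.79), Aldh1a3 (0.77), Krt15 (0.76), Krt14 (0.76) and Notch3 (0.72), of which Krt14, Krt15 and Krt17 are keratins of basal cells. Nearest Mest were C1qtnf5 (0.75), Islr (0.75) and Vash1 (0.73), nearest Plagl1 Capsl (0.89) and Slc1a1 (0.87), and nearest Grb10 Kctd12b (0.87). Nearest Cdkn1c was Acer2 (0.80), nearest Igf2 Tmem170b (0.77) and nearest Peg3 Esrrg (0.75). Dlk1 lay nearest Gkn2 and Tmem27 (both 0.99), genes high in the same 2 libraries with healthy-lung markers (Gkn2 at 16.9 and 17.4 RPKM), so these values rest on them. Groups share lines, hosts and tissue, so the coefficients describe this set of samples.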

How the data were processed

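RNA-seq libraries (335, mouse) were deposited as a table of RPKM per gene. Per the submitters' processing notes, the authors aligned reads to mm9 with TopHat and also used DESeq2; versions and the handling of strand are not given in the sources used here. Deposited RPKM values are already scaled for depth and length. Low values stepped in whole reads, which gave each library's depth (8106344 to 54906212 reads; 1 read per kilobase was 0.0368 RPKM at the median) and fits whole reads within 0.02 for every member value. All members, lists and tests were chosen with earlier results of these data known.

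Libraries were grouped by the labels, and libraries of the same tissue and animal were averaged as RPKM. Tests were 2-sided limma 3.58.1 fits (R 4.3.3, trend and robust moderation) on log2(RPKM + 1), over genes with at least 1 RPKM in as many profiles as the smaller group holds, with Benjamini-Hochberg adjustment over those genes. Fits shared over models or lines used their means with model or line as block. Lung metastases were paired with primary tumours by the animal named in the labels and kept as a block; the deviations of a pair correlated by over 0.1 in 4 of 6 pairs in 4T1, 6DT1, Met1 and M6, 2 of 6 in Mvt1 and BL10, 9 of 12 in FVB, 2 of 5 in BL6, 6 of 7 in CAST and 7 of 8 in MOLF. All 8 members are described in each comparison, other imprinted and Igf2 pathway genes are counted, with those of the smallest adjusted p named in the shared fits and where at least 2 members are called, and for each member the genes most correlated over the 61 group means were listed, among genes with a group mean of at least 5 RPKM. Of 1223 library pairs of 1 group, 0 were identical. Scripts were tested on simulated data. Alternatives were a pseudocount of 0.1, no filter, median-ratio rescaling, limma without trend and robust moderation, and no block. Each animal was also left out of the pairs within models, and each model or line of the shared fits. In other comparisons of 2 groups, samples were left out only of groups of at most 5. Refits without 3 libraries with lung markers against their label and without 5 profiles with conflicting labels were chosen after seeing the data. So were the brain markers, the neighbour list and its refit without 4 groups. Where labels conflicted, the tissue field was followed for MOLF PT_9884 and PT_9944 and Met1 LW 1, the title for FVB mouse9742 and the cell line field for the Mvt1 tail vein libraries. Where separate animals are not stated, p-values measure only the spread between these samples. Figures were drawn with matplotlib 3.10.9.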

Additional observations from a re-analysis of the deposited data

Results flagged for a closer look

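Single animals stood apart from their group in 16 of 183 groups and members examined, and chance gives about 1 in 20. For H19 these were 6DT1 animal 1 (5.50 RPKM, others 0.891 to 1.80), Mvt1 animal 5 (45.8, others 0.200 to 0.698), R3T PT1-7 (24.0, others 0.771 to 1.62), TSAE1 PT4 (10.6, others 0.973 to 1.66), the resected Met1 tumour of animal 3 (73.6, others 2.13 to 3.23) and, below its group, Met1 set1 11 (0.481, others 5.33 to 16.8). For Mest they were 4T07 animal 2 (6.79, others 1.29 to 2.26) and MOLF_9878 (3.63, others 1.61 to 2.24). For Cdkn1c they were BL6 mouse9781 (19.4, others 0.731 to 2.52) and Met1 animal 1 (3.65, others 0.0284 to 0.640), the Met1 tumour with a fibroblast marker sum of 1074. The rest were Plagl1 in the M6 liver metastasis of IC_1294 (2.73, others 0.267 to 0.945), Peg3 in the M6 lung metastasis of M6_823 (4.04, others 0.182 to 0.591), Igf2 in resected Met1 animal 3 (1.19, others 0.0147 to 0.0568), Grb10 in the Mvt1 lung metastasis of animal 1 (2.06, others 2.66 to 3.03), and Dlk1 in MMTV-Myc mouse12364 (3.55, others 0.0466 to 0.405) and in the adjacent lung of mouse9462f (3.72, others 0 to 0.0363).

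The difference between metastasis and primary tumour itself differed between the 10 models (limma F test) for H19 (adjusted p = 0.0381), Igf2 (0.0351), Mest (0.0227), Plagl1 (0.0262) and Cdkn1c (0.0045). The same test called 18.6% of all genes. Without the profiles with conflicting labels it no longer called H19 (0.0517) and Igf2 (0.0516). Igf2 had passed the filter in no model fitted alone. In unreplicated libraries that enter no test, Dlk1 was 259 RPKM in the Met1 tail vein metastasis (Met1 primary tumours 0.00504 to 0.337), and Igf2 was 20.9 (0 to 0.989) and Peg3 37.0 (1.03 to 3.64) in the Met1 brain metastasis.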

How the results depend on the processing

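Called members were refitted 257 times with 1 animal, culture, model or line left out, and 46 of these refits lost the call. That counts refits, several to a call. Within models only the Grb10 call in 6DT1 was kept in each of its refits. Of calls for single members, no filter lost 11 of 85, rescaling 7 (and reversed 1), a pseudocount of 0.1 lost 2, and plain limma 0. Counts of member calls moved as follows: no filter gave 13 in place of 8 among groups; rescaling gave 3 in place of 8 over the M6 sites; leaving out 4T1 or M6 gave 1 in place of 0 in the shared metastasis fit; leaving out conflicting labels gave 3 in place of 5 for the difference between models. With 1 animal, culture, model or line left out, counts ran from 5 to 7 (within models, 7 with all), 0 to 1 (shared metastasis) and 3 to 3 (shared cultures). The others ran 19 to 21 (within lines, 21), 14 to 15 (between models, 15), 1 to 1 (route), 7 to 9 (M6 sites, 8), 0 to 0 (resected) and 11 to 15 (organs, 13). Outside the pairs within models, only groups of at most 5 were refitted. These were the cultures within lines, C3Tag tumours between models and 6DT1 tail vein metastases for route. The 4T1 Mest route call, the strain calls and calls between models without C3Tag were therefore not refitted, and their counts could not move. Without the replicate block, which pairs tissues of 1 animal or 1 line, 6 of 7 calls within models, 2 of 3 in shared cultures, 7 of 8 over M6 sites, and 0 in the shared metastasis and resected fits remained; no call other than the 3 named in the text (BL10 Peg3, shared H19, M6 liver Peg3) changed. Spearman's rho kept 16 of 40 nearest genes.

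Signs reversed on rescaling for Peg3 (0.00172) in Met1, Grb10 (0.0177) in BL10 and Peg3 (0.0148) in MOLF metastases, Mest in BL10 against FVB (0.00203), Peg3 in MOLF against FVB (0.0435), Cdkn1c in M6 liver metastases against adjacent liver (-0.209), and Mest (-0.00195) and Plagl1 (-0.0366) in resected Met1. With the smaller pseudocount they did for Grb10 in Met1 (0.00913) and Plagl1 in CAST metastases (-0.031), Cdkn1c in Myc against FVB (-0.198) and Mest in BL10 against FVB (0.0375). Without conflicting labels they did for Mest in Met1 against FVB (-0.143) and Grb10 (0.0681) and Peg3 (0.144) in Met1 metastases, and without lung-marker libraries for Grb10 in BL6 against FVB (-0.167). Of these only the Cdkn1c liver difference had been called. The cause was not tested. Group means of 1 RPKM or more were 240 of the group and member pairs, 226 by medians and 240 with the first nodule of each animal. Differences near 0.0368 RPKM, the value of 1 read per kilobase, are not detectable at this depth.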
